A study of Mus musculus with 24 samples.

Results

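The 10 genes described here encode the machinery that makes, reads and destroys cyclic AMP (cAMP) beneath the receptors of brown fat: the stimulatory G protein subunit gene Gnas, the adenylyl cyclase genes Adcy3 and Adcy6, the protein kinase A (PKA) subunit genes Prkaca, Prkar1a and Prkar2b, the phosphodiesterase genes Pde3b, Pde4b and Pde4d, and Rgs2, a regulator of G protein signalling. They were taken by name from a table of 36144 genes, and all 10 passed the filter on low counts, as did 13129 genes in all. The values come from polyadenylated RNA of interscapular brown fat, the depot between the shoulder blades that makes heat, of 24 mice aged 6 to 8 months. There were 4 groups of 6 mice, each with 3 males and 3 females, and tissue was taken 30 minutes after the dose: Th-Cre mice given deschloroclozapine (DCZ), Th-Cre mice given saline, WT mice given DCZ and WT mice given saline. DCZ activates designer receptors built from muscarinic ones. The Th-Cre animals are labelled B6.129X1- Tht1(cre)Te/Kieg and carry Cre under tyrosine hydroxylase regulatory sequence, which is active in catecholamine-producing cells. The WT animals are labelled C57Bl/6J. No source used here names the receptor, its delivery or whether WT mice received it, so the genotype comparison covers the strain label, the transgene and anything else the Th-Cre animals were given.

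When noradrenaline binds beta-adrenergic receptors on a brown adipocyte, the stimulatory G alpha subunit turns on adenylyl cyclases, which make cAMP. cAMP frees the catalytic subunits of PKA from their regulatory subunits, and PKA then drives lipolysis, heat production and transcription through CREB. Phosphodiesterases degrade cAMP and RGS proteins shorten G protein signals, and several of these brakes are themselves induced by the pathway.

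Libraries held 11.93 to 22.87 M estimated counts. The libraries are of brown fat by their markers: the summed level of 12 brown adipocyte markers, Ucp1 among them, was, in CPM (counts scaled to a common library size), 12530 to 14290 in Th-Cre DCZ, 12710 to 15050 in Th-Cre saline, 15590 to 19040 in WT DCZ and 15180 to 17310 in WT saline libraries, so it was lower in each Th-Cre library than in any WT library. That sum does not describe each marker: the median log2 fold change of the 12, Th-Cre over WT, was -0.04 under saline and -0.14 under DCZ. None of 8 sympathetic neuron markers passed the filter, and their sum stayed at or below 0.5591 CPM, which leaves transcripts of the sympathetic neurons near 0. Skeletal muscle transcripts stood out in 6 libraries (a mean log2 CPM of 13 muscle markers above 1): Th-Cre DCZ DN2075 and DN2091, Th-Cre saline DN2086, DN2087 and DN2094, and WT saline 12. Th-Cre libraries are numbered 13 to 24 and WT libraries 1 to 12, so genotype and library number cannot be told apart. Within WT, 5 of the 6 lower numbers are DCZ animals. In bulk tissue, fewer cells of a type and less RNA per cell cannot be told apart.

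Per kilobase of the median coding transcript, the G protein subunit and a PKA regulatory subunit stood far above the other members. Gnas averaged 1186 CPM per kilobase ± 273 (SD, n = 24) and Prkar2b, the type II beta regulatory subunit abundant in fat, 349 ± 54.5. Prkaca, the main catalytic subunit, followed with 143 ± 17.7. Rgs2 averaged 113 ± 46.6, Adcy6 93.4 ± 9.12, Prkar1a, the type I alpha regulatory subunit, 51.3 ± 5.82 and Adcy3 50.9 ± 18.7. The phosphodiesterases were the lowest, with Pde3b, the enzyme through which insulin lowers cAMP in adipocytes, at 37.0 ± 7.52, Pde4d at 31.0 ± 8.91 and Pde4b at 6.66 ± 2.20. Neighbours in this order from Prkaca to Pde4d lay within 1 SD of one another, apart from Adcy6 and Prkar1a, and the order there depends on the length used: per kilobase of the longest coding transcript Adcy6 averaged 33.4, below Prkar1a at 49.0, Adcy3 at 48.2 and Pde3b at 37.0. Gnas and Prkar2b stayed on top by either length and Pde4b stayed lowest.

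The members also differed in how much they varied. Over the 24 libraries the coefficient of variation was 9.77% for Adcy6, 11.4% for Prkar1a, 12.4% for Prkaca and 15.6% for Prkar2b, against 36.8% for Adcy3 and 41.1% for Rgs2. Between them lay Pde3b (20.35%), Gnas (23%), Pde4d (28.75%) and Pde4b (33.01%). Gnas had 24 annotated transcripts on GRCm38, including those of its alternative first exons, and spans chr2:174284320-174346744 on the plus strand, where it overlaps the antisense gene Nespas. The count table gives one value per symbol and no source used here says whether strand was used, so Gnas values can hold reads of several products of the locus. Adcy3 (chromosome 12, 4133103 to 4213525, plus strand) overlaps Cenpo on the other strand.

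**Figure D1:**
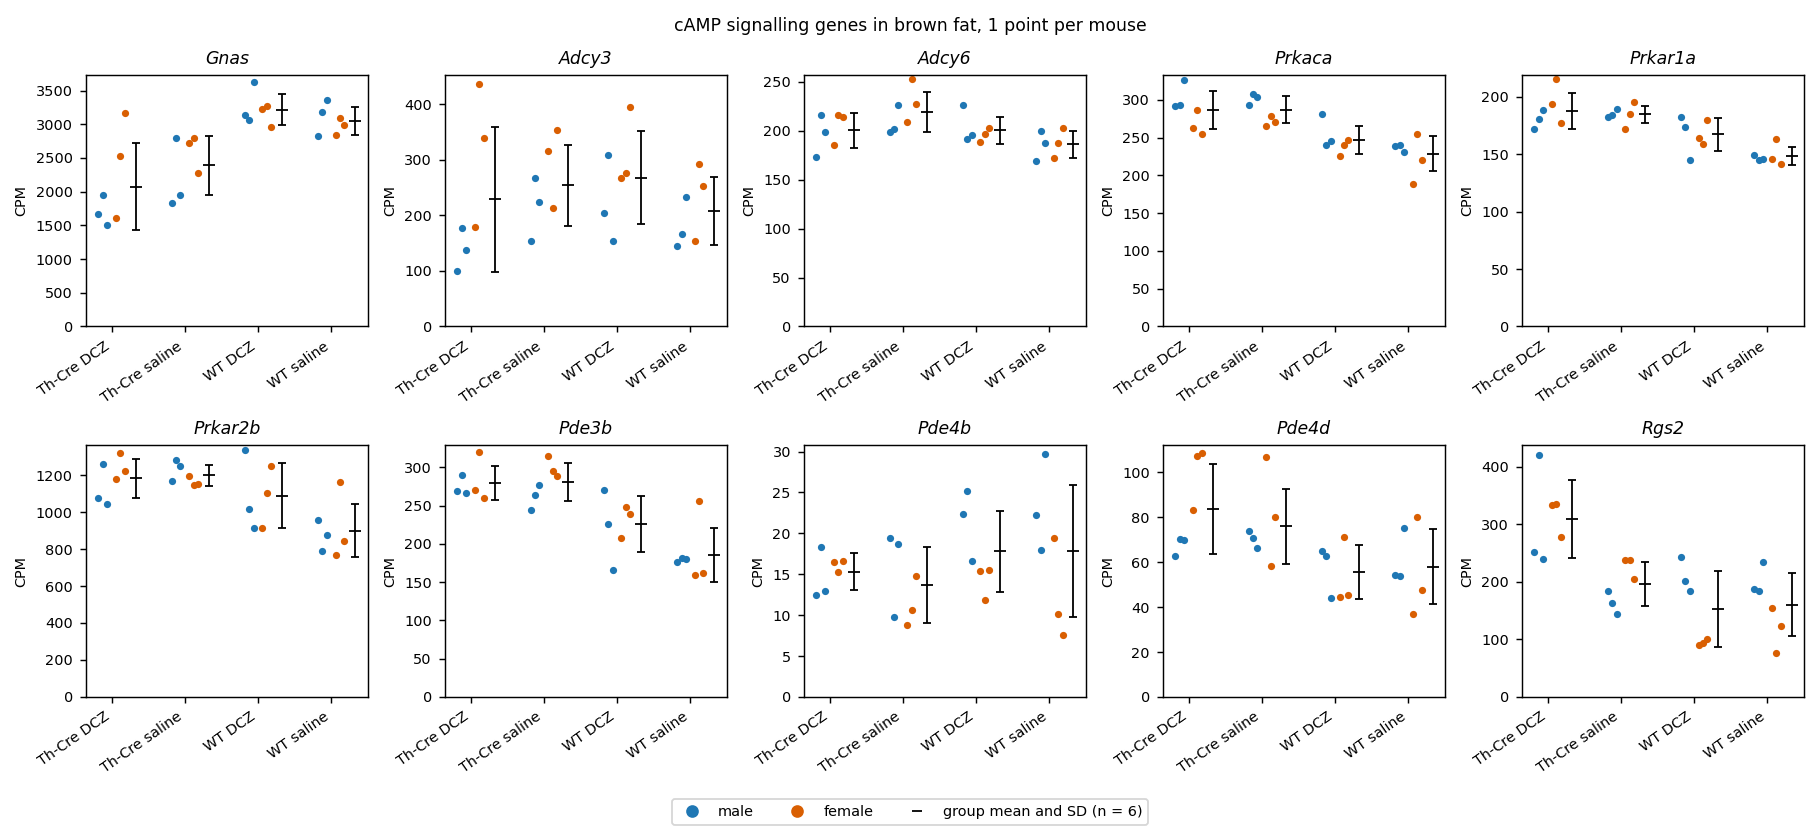
CPM of the 10 cAMP signalling genes in each mouse (points, males and females coloured apart), with the mean and SD of each group of 6 beside them. In the Rgs2 panel the 6 Th-Cre DCZ mice sit between 240.2 and 420.9 CPM, above the 6 Th-Cre saline mice at 145.2 to 238 CPM, and in the Gnas panel all 6 Th-Cre saline mice lie below the WT saline mice, and 5 of 6 Th-Cre DCZ mice below the WT DCZ mice.

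The promoters of 3 members are shown because Rgs2 had the largest DCZ difference and Prkaca and Prkar1a were called between the genotypes under saline in groups that did not overlap (Pde3b, the most different there, had no RefSeq entry), and because CREB, the transcription factor at the end of this pathway, recognises the cAMP response element. The sequences are from RefSeq on GRCm38.p6 and run 5′ to 3′ toward the RefSeq start. Capitals mark every match, on either strand, to the short form TGACG or its reverse complement CGTCA, and to the full element TGACGTCA, in which both short forms overlap. Each is printed up to the first base that GENCODE annotates as exon of the gene, which leaves 238 bases for Rgs2, 250 for Prkaca and 222 for Prkar1a, while distances are counted to the RefSeq start. The Rgs2 stretch is chr1:144004162-144004399 on the minus strand, with matches that begin 185 and 67 bases before the start. The Prkaca stretch is chr8:83972728-83972977 on the plus strand, with matches 120 and 6 bases before the start. The Prkar1a stretch belongs to one of its internal starts, at chr11:109650699-109650920 on the plus strand, with the short form 187 and the full element 49 bases before the start. Prkaca and Prkar1a have several RefSeq starts, and the window shown for each was picked because it held these matches. The Prkaca window before base 83976883 held no match. Nor did the Prkar1a windows before bases 109649023, 109650542 and 109651342, the first of which is its most upstream start.
Rgs2: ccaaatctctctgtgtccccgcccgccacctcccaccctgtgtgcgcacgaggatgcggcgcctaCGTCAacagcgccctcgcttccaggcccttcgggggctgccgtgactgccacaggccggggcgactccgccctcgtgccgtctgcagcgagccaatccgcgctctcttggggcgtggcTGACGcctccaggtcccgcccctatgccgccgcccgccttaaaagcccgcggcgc
Prkaca: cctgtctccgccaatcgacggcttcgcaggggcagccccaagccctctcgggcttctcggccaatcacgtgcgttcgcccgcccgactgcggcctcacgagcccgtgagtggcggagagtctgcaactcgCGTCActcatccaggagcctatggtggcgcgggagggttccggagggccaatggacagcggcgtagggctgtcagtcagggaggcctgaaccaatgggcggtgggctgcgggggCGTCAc
Prkar1a: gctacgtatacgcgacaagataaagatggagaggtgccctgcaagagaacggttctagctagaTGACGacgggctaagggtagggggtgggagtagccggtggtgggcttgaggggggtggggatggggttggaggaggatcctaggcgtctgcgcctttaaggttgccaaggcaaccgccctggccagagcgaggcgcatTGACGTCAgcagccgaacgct

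Of the members, 8 had RefSeq windows, 22 in all, each searched over the whole 250 bases before a start, and Adcy6 and Pde3b had no entry. The short form was in 9 of the 22 windows (40.9%), against 17.8% of 32851 RefSeq windows of that length, and the full element in 1 (4.55%), against 1.55%. Windows of one gene overlap, so these shares are a description. Gnas had the short form before 3 of its starts, 38, 57 and 216 bases upstream, the first 2 of which are the same match seen from neighbouring starts. In Prkar1a the short form 100 bases before the start at 109650862 is the match shown above at 187 bases, seen from another start. Prkar1a also had it 151 bases before the start at 109649363. Pde4b had it 34 bases before 1 of its 4 starts. No window of Adcy3, Prkar2b or Pde4d held these letters.

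Within Th-Cre mice, DCZ was set against saline 30 minutes after the dose. None of the 10 members passed the threshold of an adjusted p under 0.05 (quasi-likelihood test of edgeR, Benjamini-Hochberg adjusted over 13129 genes), where 0.0229% of all genes tested did. At an unadjusted p under 0.05 there was 1 member of 10, Rgs2, against 5.67% of all genes, and DESeq2 also called 0 members. Rgs2 was the member with the largest difference in either direction.

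Rgs2, which speeds the shut-off of Gq proteins and also restrains some adenylyl cyclases, had 240.2 CPM at the lowest, 305.8 at the median and 420.9 at the highest in the 6 Th-Cre DCZ mice, against 145.2, 195.1 and 238 CPM in the 6 Th-Cre saline mice. The groups did not overlap: all 6 DCZ libraries lay above every saline library, which was so, in one direction or the other, for 0.305% of all genes tested and for no other member. The means were 310 ± 67.6 and 195.8 ± 38.4 CPM in Th-Cre DCZ and Th-Cre saline mice (SD, n = 6 each), and the fitted log2 fold change was 0.64 ± 0.23 SE (1.56-fold, unadjusted p = 0.0097, adjusted p = 0.646). It lay between 0.53 and 0.74 when any 1 library was left out, was 0.77 without the muscle-bearing libraries, 0.89 in males alone and 0.48 in females alone, none past the threshold. Where only the 12 Th-Cre libraries were fitted it was 0.68 with an adjusted p of 0.0947.

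In WT mice the same dose left Rgs2 at 90.35, 142.6 and 244.1 CPM (lowest, median, highest) after DCZ, against 77.13, 170.3 and 234.2 CPM after saline. These groups overlapped, with 1 of 6 DCZ libraries above every saline library, and the log2 fold change was -0.09 ± 0.23 (adjusted p = 0.923). The difference between the DCZ effects in Th-Cre and WT mice was 0.73 ± 0.32 for Rgs2 (unadjusted p = 0.0316, adjusted p = 0.635), so it did not pass the test. No member passed in this interaction, where 0.00762% of all genes did. Adcy6 (-0.23, unadjusted p = 0.0307) and Prkar2b (-0.30, unadjusted p = 0.0492) were the other members with an unadjusted p under 0.05, 3 of 10 against 7.46% of all genes.

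The other 9 members had fitted differences of at most 1.17-fold in either direction between DCZ and saline in Th-Cre mice. Prkaca averaged 286.1 ± 25.4 CPM in Th-Cre DCZ and 286.9 ± 17.5 CPM in Th-Cre saline mice, and the 95% interval of its log2 fold change was -0.14 to 0.13. Pde3b averaged 279.4 ± 22.6 and 280.7 ± 24.6 CPM in these groups (interval -0.22 to 0.22), Prkar1a 187.9 ± 15.7 and 184.8 ± 7.67 CPM (-0.11 to 0.16), and Prkar2b 1183 ± 106 and 1199 ± 55.9 CPM (-0.23 to 0.19). For these 4 genes the intervals stayed within 0.23 of 0 on the log2 scale. They were wider for the genes that varied more between mice, reaching -0.72 to 0.26 for Adcy3, -0.50 to 0.08 for Gnas, -0.27 to 0.66 for Pde4b and -0.24 to 0.51 for Pde4d. Adcy6 averaged 200.5 ± 18.1 CPM after DCZ and 219.3 ± 20.6 CPM after saline, with an interval of -0.28 to 0.02.

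In WT mice none of the 10 members passed either (0.00762% of all genes did), and DESeq2 called 0. With an unadjusted p under 0.05 there were 3 members of 10, against 8.66% of all genes, all higher after DCZ. Pde3b averaged 226 ± 36.2 CPM in WT DCZ and 185.8 ± 35.4 CPM in WT saline mice (log2 fold change 0.28 ± 0.11), Prkar2b 1088 ± 175 and 899.8 ± 145 CPM (0.27 ± 0.10), and Prkar1a 167.5 ± 14.4 and 148.6 ± 7.84 CPM (0.17 ± 0.06). Each had an adjusted p of 0.527, and in each the groups overlapped. Leaving out WT saline mouse 2 moved these log2 fold changes to 0.39, 0.37 and 0.20, with adjusted p of 0.0608, 0.0701 and 0.127. Without WT DCZ mouse 1 they were 0.21, 0.20 and 0.15, with an adjusted p of 0.895 for each.

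After Rgs2, the members that varied most over the 24 libraries were Adcy3 and Pde4b, neither of which was called in any comparison of the 4 groups. Adcy3 averaged 228.4 ± 131 CPM in Th-Cre DCZ, 254.2 ± 73.0 in Th-Cre saline, 267.5 ± 83.6 in WT DCZ and 207.2 ± 61.0 CPM in WT saline mice (SD, n = 6 each), and its full range in Th-Cre DCZ mice, 99.47 to 436.1 CPM, took in those of the other groups. Pde4b, a cAMP-specific phosphodiesterase, averaged 15.3 ± 2.28 CPM in Th-Cre DCZ, 13.7 ± 4.65 in Th-Cre saline, 17.8 ± 4.95 in WT DCZ and 17.8 ± 8.07 CPM in WT saline mice. No member had groups without overlap for DCZ in WT mice, where 0.19% of all genes did.

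**Figure D2:**
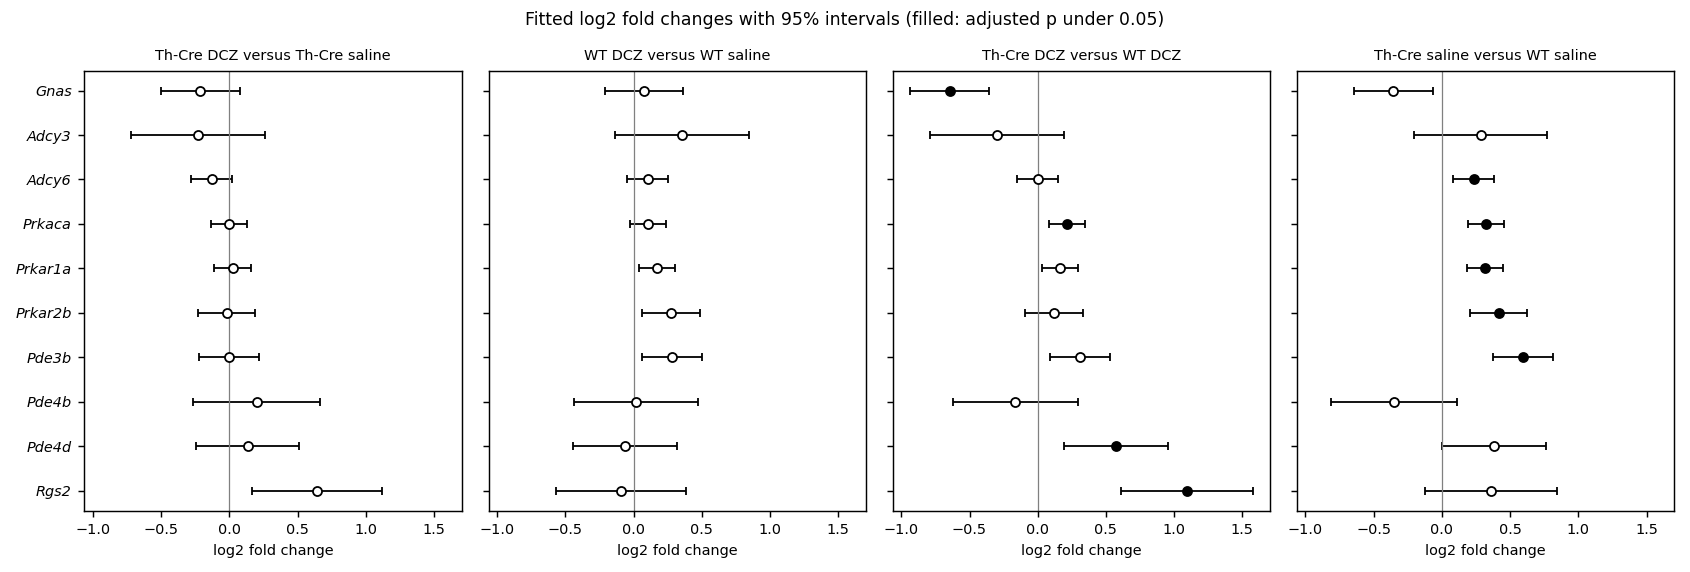
Fitted log2 fold change of each member in 4 comparisons (points) with its 95% interval (bars). Filled points have an adjusted p under 0.05: none for DCZ against saline in either genotype, 4 for Th-Cre DCZ against WT DCZ and 5 for Th-Cre saline against WT saline.

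Larger differences lay between the genotypes. Under saline, 5 of the 10 members were higher in Th-Cre than in WT mice and none was lower, where 24.9% of all genes tested were called, 12.5% as higher. They were the PKA genes Prkaca, Prkar1a and Prkar2b, the phosphodiesterase gene Pde3b and the cyclase gene Adcy6. The median log2 fold change of the 10 members was 0.32, against -0.01 over all genes tested. The members were chosen with earlier results of these data known, so these contrasts with all genes are a description.

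Pde3b was the most different, with 244.4, 282.9 and 314.4 CPM (lowest, median, highest) in Th-Cre saline mice, against 159.8, 178.1 and 255.5 CPM in WT saline mice. All but 1 of the 6 Th-Cre libraries lay above every WT library, and 5 of 6 WT libraries lay below every Th-Cre library, the exception being WT mouse 2. The log2 fold change was 0.59 ± 0.11 (1.51-fold, adjusted p = 0.00126). Prkaca had 265.8, 286.4 and 308.3 CPM in Th-Cre saline mice, against 188, 234.9 and 254.7 CPM in WT saline mice. Its groups did not overlap, and the log2 fold change was 0.32 ± 0.06 (1.25-fold, adjusted p = 0.00176).

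Prkar1a likewise did not overlap, with 172.4, 184.6 and 195.4 CPM in Th-Cre saline mice, against 141.2, 145.9 and 163.6 CPM in WT saline mice (log2 fold change 0.32 ± 0.06, 1.24-fold, adjusted p = 0.00218). Prkar2b had 1145, 1181 and 1283 CPM in Th-Cre saline mice, against 770, 859.6 and 1163 CPM in WT saline mice (0.41 ± 0.10, 1.33-fold, adjusted p = 0.00574), and 4 of 6 Th-Cre libraries lay above every WT library. Thus the catalytic subunit and both regulatory subunits among the members were higher together, by 1.24 to 1.33-fold. Adcy6, a cyclase that calcium inhibits, averaged 219.3 ± 20.6 CPM in Th-Cre saline and 186.4 ± 13.7 CPM in WT saline mice (0.23 ± 0.07, 1.18-fold, adjusted p = 0.0208).

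Gnas ran the other way. It had 1830, 2493 and 2797 CPM in Th-Cre saline mice, against 2831, 3040 and 3360 CPM in WT saline mice, so that all 6 Th-Cre libraries lay below every WT library. Its log2 fold change of -0.36 ± 0.14 had an adjusted p of 0.0595 and so just missed the threshold, and DESeq2 called it (-0.35, adjusted p = 0.0405). Non-overlapping groups, as for Gnas, Prkaca and Prkar1a, were found for 5.54% of all genes tested in this comparison. Adcy3 (0.28), Rgs2 (0.36), Pde4d (0.38) and Pde4b (-0.35) did not pass, with adjusted p of 0.387, 0.258, 0.124 and 0.252.

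Under DCZ, 4 of the 10 members differed between the genotypes, 3 higher and 1 lower in Th-Cre mice, where 13.8% of all genes were called, 6.75% as higher and 7.02% as lower. As under saline, these shares are a description, given how the members were chosen. Rgs2 led. The Th-Cre DCZ mice had 240.2, 305.8 and 420.9 CPM, against 90.35, 142.6 and 244.1 CPM in WT DCZ mice, a log2 fold change of 1.09 ± 0.23 (2.13-fold, adjusted p = 0.00502), with 5 of 6 Th-Cre libraries above every WT library. Pde4d, a phosphodiesterase of the cAMP-specific PDE4 family, had 62.82, 76.62 and 108.6 CPM in Th-Cre DCZ mice, against 44.25, 54.3 and 71.05 CPM in WT DCZ mice (0.58 ± 0.18, 1.49-fold, adjusted p = 0.0370). Those groups overlapped, with 3 of 6 Th-Cre libraries above every WT library.

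Prkaca was again higher, at 286.1 ± 25.4 CPM in Th-Cre DCZ and 246.6 ± 18.3 CPM in WT DCZ mice (0.21 ± 0.06, adjusted p = 0.0275). Gnas was lower, with 1512, 1817 and 3171 CPM in Th-Cre DCZ mice, against 2958, 3187 and 3628 CPM in WT DCZ mice (-0.65 ± 0.14, 1.57-fold lower, adjusted p = 0.00533). In Gnas 5 of 6 Th-Cre libraries lay below every WT library and 1 lay inside the WT range. Its coefficient of variation was 31.25% in Th-Cre DCZ and 7.178% in WT DCZ mice, and 18.26% in Th-Cre saline and 6.812% in WT saline mice. The groups share an estimate of the spread in the fit, so the SE of Gnas does not measure the wider Th-Cre spread. Non-overlapping groups made up 3.48% of all genes here and held no member. Pde3b (0.31, adjusted p = 0.0527), Prkar1a (0.17, 0.0811) and Prkar2b (0.12, 0.450) kept a positive sign without passing, and Adcy6 was at 200.5 ± 18.1 CPM in Th-Cre DCZ and 200.4 ± 13.7 CPM in WT DCZ mice.

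The number of genotype calls depended on whether the muscle-bearing libraries were kept. Leaving them out keeps 18 libraries. It takes DN2086, DN2087 and DN2094 from Th-Cre saline, DN2075 and DN2091 from Th-Cre DCZ, and mouse 12 from WT saline. Muscle content and smaller groups cannot be told apart in that fit. Without the 6 muscle-bearing libraries the calls among the members went to 0 under saline and to 1, Rgs2 (0.99, adjusted p = 0.0354), under DCZ, while calls over all genes went to 109 and 535, against 3270 and 1808 with all libraries. The sizes moved less: under saline Pde3b was 0.55, Prkar2b 0.43, Prkar1a 0.36, Prkaca 0.31 and Adcy6 0.22, with adjusted p of 0.0535 to 0.152, and under DCZ Gnas was -0.56 and Pde4d 0.63. Of single libraries, leaving out WT saline 11, WT saline 12 or Th-Cre saline DN2094 took Adcy6 to adjusted p of 0.0506, 0.0552 and 0.0605 under saline. Under DCZ, Prkaca was lost without WT DCZ 3, 5 or 10 or Th-Cre DCZ DN2205 or DN2097, with adjusted p of 0.0612 to 0.0807. Pde4d was lost without WT DCZ 5, 6 or 10 or Th-Cre DCZ DN2205, DN2207, DN2075 or DN2097, with adjusted p of 0.0505 to 0.0967. Rgs2 and Gnas under DCZ, and Pde3b, Prkaca, Prkar1a and Prkar2b under saline, passed without any single library.

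Markers of other cell types moved with the genotype. Of all genes tested, 24.9% were called between the genotypes under saline and 13.8% under DCZ. Under saline, 6 of 8 endothelial markers and 5 of 7 smooth muscle and pericyte markers were lower in Th-Cre mice and none was higher. Of 5 lymphocyte markers, 1 was lower under saline and 2 were lower under DCZ, and none was higher. The summed endothelial level was 575.3 to 655 CPM in Th-Cre saline and 598 to 1082 CPM in WT saline mice, and the smooth muscle sum 451.8 to 485.4 CPM and 471.8 to 641.9 CPM in the same groups. Of 12 brown adipocyte markers 1 (Plin1) was higher and 4 (Ucp1, Cox7a1, Cox8b and Fabp4) were lower. No skeletal muscle marker was called under saline and 3 of 13 were higher under DCZ, with sums of up to 1341 CPM in Th-Cre saline, 600.9 CPM in Th-Cre DCZ, 87.64 CPM in WT DCZ and 323.2 CPM in WT saline mice. Under DCZ, 2 of 8 endothelial markers (Kdr and Emcn), 2 of 7 smooth muscle and pericyte markers (Myh11 and Pdgfrb) and 1 of 6 Schwann cell markers (S100b) were lower and none was higher. The endothelial sum was 551.1 to 693 CPM in Th-Cre DCZ and 630.1 to 905.3 CPM in WT DCZ mice, and the smooth muscle sum 470.1 to 533.6 CPM and 489.9 to 587.8 CPM in the same groups. Of the brown adipocyte markers, Adrb3 was higher and Ucp1, Cox7a1 and Cox8b were lower under DCZ. The part of these markers in the members' differences was not tested.

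The rest of the pathway was described through 62 other genes in 7 groups, 56 of which passed the filter. DCZ called none of them in Th-Cre or WT mice by edgeR, with 3 of 56 at an unadjusted p under 0.05 in each genotype. Of all genes tested, 5.67% were under it in Th-Cre and 8.66% in WT mice, so these counts are not a result about the pathway. The cyclase gene Adcy9 was the 1 gene of the 56 without overlap for DCZ in Th-Cre mice, at 26.72 to 31.96 CPM in Th-Cre DCZ and 22.05 to 25.31 CPM in Th-Cre saline mice (0.30 ± 0.19, unadjusted p = 0.127, adjusted p = 0.942), where 0.305% of all genes had no overlap. Pkib, which encodes an inhibitor of PKA, had the smallest unadjusted p for DCZ in WT mice, with 0.832 ± 0.258 CPM in WT DCZ and 0.453 ± 0.216 CPM in WT saline mice (0.87 ± 0.30, unadjusted p = 0.00773, adjusted p = 0.527), a low level. The median log2 fold change of the 56 genes was 0.01 in both genotypes.

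Between the genotypes under saline, 9 of the 56 genes were higher and 12 lower in Th-Cre mice, where 12.5% of all genes tested were higher and 12.4% lower, so all genes split both ways too. Among PKA genes, the catalytic subunit gene Prkacb was higher (57.1 ± 3.38 CPM in Th-Cre saline and 39.3 ± 6.30 CPM in WT saline mice, 0.54 ± 0.10, adjusted p = 0.00159), as was the regulatory subunit gene Prkar2a (0.23, adjusted p = 0.0274), and the PKA inhibitor gene Pkig was lower (-0.48, adjusted p = 0.0157). Of 5 cyclase genes tested, Adcy9 was higher and Adcy4 lower. Adcy9 had 22.05, 24.29 and 25.31 CPM in Th-Cre saline mice, against 6.064, 13.2 and 18.19 CPM in WT saline mice (0.92 ± 0.19, adjusted p = 0.00265), with no overlap. Rgs4 and Akap10, given below, had no overlap either. Of all genes tested, 5.54% had none in this comparison, so the separation is not particular to these genes. Adcy4 averaged 21.1 ± 2.18 CPM in Th-Cre saline and 35.3 ± 8.83 CPM in WT saline mice (-0.74 ± 0.15, adjusted p = 0.00247).

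Both Epac genes, Rapgef3 (-0.59, adjusted p = 0.00424) and Rapgef4 (-0.65, adjusted p = 0.0104), which encode the cAMP sensors that act beside PKA, were lower. Of 8 other RGS genes, Rgs4 (-0.76 ± 0.14, adjusted p = 0.00130) and Rgs5 (-0.28, adjusted p = 0.00669) were lower and none was higher. Rgs5 is also among the smooth muscle and pericyte markers, and the same value is counted with the lower ones above. Among G protein subunits the inhibitory alpha subunit gene Gnai1 (0.43, adjusted p = 0.0173), Gnao1 (0.34, adjusted p = 0.0316) and Gnb5 (0.23, adjusted p = 0.0288) were higher, and Gnb4 was lower (-0.51, adjusted p = 0.0174). Of 12 other phosphodiesterase genes, the cAMP-specific Pde7b was higher (0.77, adjusted p = 0.0178), and Pde1b (-0.42, adjusted p = 0.0232) and Pde4c (-0.40, adjusted p = 0.0402) were lower. Of 9 A-kinase anchoring protein genes, whose products tether PKA, Akap10 (0.36, adjusted p = 0.00631) was among 2 that were higher, and Akap5 (-0.79, adjusted p = 0.0167) and Akap8 (-0.32, adjusted p = 0.0162) were among 3 that were lower.

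Under DCZ 5 of the 56 genes were higher and 4 lower, close to the 6.75% and 7.02% of all genes tested, so the counts are not a result about the pathway. Adcy9 was again higher (29.2 ± 1.94 CPM in Th-Cre DCZ and 14.9 ± 4.60 CPM in WT DCZ mice, 0.98 ± 0.19, adjusted p = 0.00295). Its groups did not overlap, which was so for 3.48% of all genes tested. Also higher, with groups that overlapped, were Gnai1 (0.50, adjusted p = 0.0126), Rgs3 (0.48, adjusted p = 0.0257), Prkar2a (0.28, adjusted p = 0.0154) and Akap10 (0.29, adjusted p = 0.0318). Akap5 (-0.95, adjusted p = 0.0116), Rgs4 (-0.54, adjusted p = 0.0129), Adcy4 (-0.49, adjusted p = 0.0337) and Akap8 (-0.29, adjusted p = 0.0377) were lower. Without the muscle-bearing libraries the calls among these 56 genes went to 0 under saline and 4 under DCZ. The part of the other cell type markers, given above for both comparisons, in these genes was not tested.

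**Figure D3:**
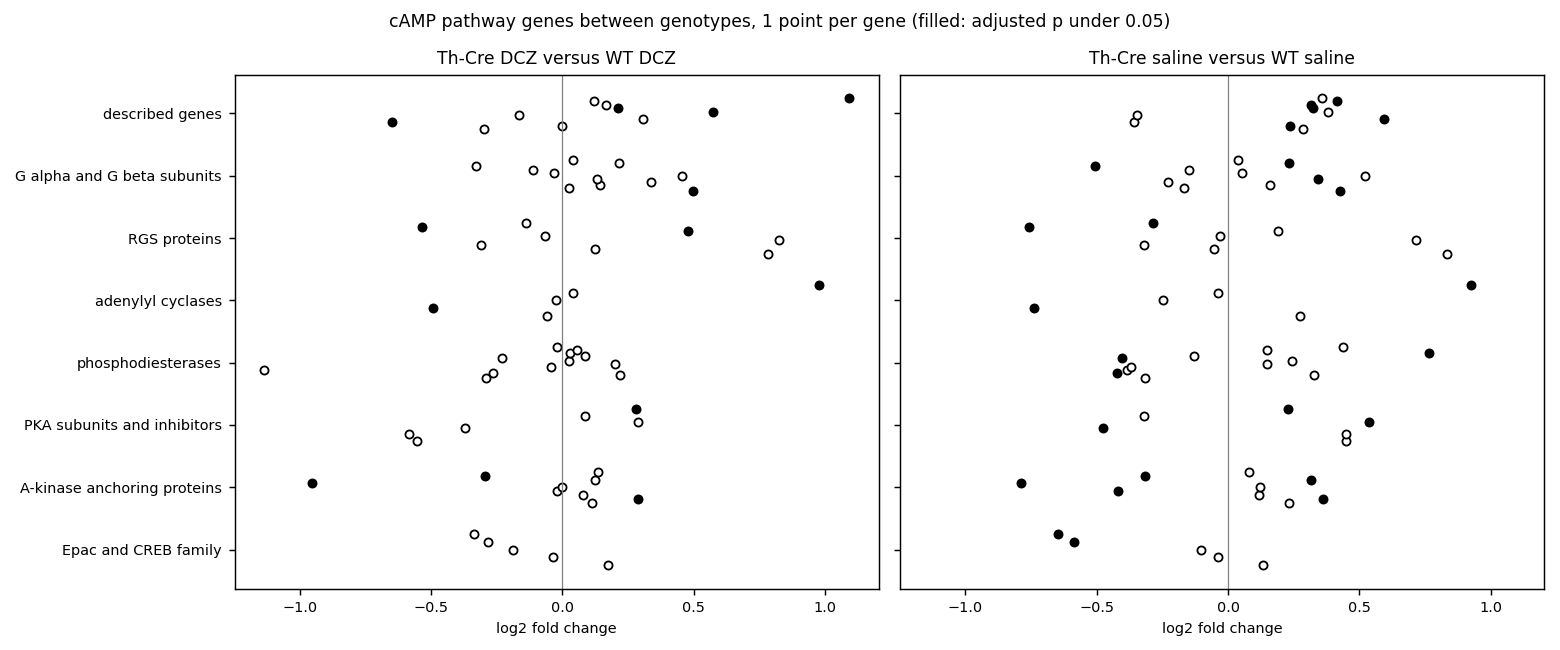
Log2 fold change of each tested cAMP pathway gene between Th-Cre and WT mice (1 point per gene), by group, under DCZ (left) and saline (right). Filled points have an adjusted p under 0.05. Under saline the called points of the described genes all lie to the right of 0, and those of the other 56 genes lie on both sides (9 higher, 12 lower).

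Each group held both sexes. Over all 24 libraries 1 of the 10 members differed between males and females, where 8.07% of all genes tested were called. Adcy3, the cyclase best known from olfactory neurons, had 99.47 CPM at the lowest, 172.5 at the median and 308.7 at the highest in 12 males, against 153, 284.8 and 436.1 CPM in 12 females. The sexes overlapped, with 4 males below every female, and the log2 fold change was -0.62 ± 0.17 (1.54-fold lower in males, adjusted p = 0.0212). It passed without any single library and in each alternative fit, and its mean was lower in males in each of the 4 groups, from 138.6 CPM in males and 318.1 CPM in females of Th-Cre DCZ to 181.7 CPM in males and 232.8 CPM in females of WT saline. Of 13 skeletal muscle markers 8 were lower in males, and without the 6 muscle-bearing libraries the Adcy3 difference was -0.80 (adjusted p = 0.0105).

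Prkaca averaged 274.5 ± 33.1 CPM in males and 249.7 ± 27.8 CPM in females (0.13 ± 0.04, adjusted p = 0.0643), and Pde4b 18.8 ± 5.61 CPM in males and 13.55 ± 3.62 CPM in females (0.46 ± 0.16, adjusted p = 0.0705). Both missed the threshold in edgeR and passed it in DESeq2 (adjusted p = 0.0317 and 0.0353). The remaining 7 members had adjusted p of 0.207 or more.

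For Rgs2 the sex difference was also looked at within each genotype, with a model of 8 means that was added after the pattern had been seen in the same values. In WT mice the 6 males had 183.8 to 244.1 CPM and the 6 females 77.13 to 155.4 CPM, over both treatments. The share of all genes whose WT sexes did not overlap was not computed, so this separation is a description. The log2 fold change of males over females in WT mice was 0.96 ± 0.15 (1.94-fold, adjusted p = 0.00110), and Rgs2 was the 1 member of 10 called there, where 2.5% of all genes were. In Th-Cre mice the males had 145.2 to 420.9 CPM and the females 205.2 to 335.4 CPM (-0.26 ± 0.15, adjusted p = 0.409), and none of the 10 members was called, where 1.61% of all genes were. The difference between these effects was -1.22 ± 0.21 (unadjusted p = 6.99e-06). Its adjusted p was 0.0917, and 0% of all genes tested passed for this interaction.

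Rgs2 was thus not called for this interaction, though some alternative fits passed. Without the muscle-bearing libraries it was -1.46 (adjusted p = 0.00732) and without a filter on low counts -1.21 (adjusted p = 0.00165). It also passed without WT saline 12 (adjusted p = 0.0134) or Th-Cre DCZ DN2091 (adjusted p = 0.00305). All these fits test a pattern first seen in the same values, so they are a description. The genotype difference in Rgs2 is given by sex as a description, since the interaction with all libraries missed the threshold. Under DCZ, Th-Cre females had 277.6 to 335.4 CPM and WT females 90.35 to 101.4 CPM (1.73 in females alone, adjusted p = 0.00456), and Th-Cre males had 240.2 to 420.9 CPM and WT males 183.8 to 244.1 CPM (0.54 in males alone, adjusted p = 0.108). Under saline, Th-Cre females were at 205.2 to 238 CPM and WT females at 77.13 to 155.4 CPM, while Th-Cre males were at 145.2 to 185.1 CPM and WT males at 185.1 to 234.2 CPM, so that the log2 fold change was 0.93 in females alone (adjusted p = 0.0919) and -0.30 in males alone (adjusted p = 0.341). The DCZ difference within Th-Cre mice had the same sign in both sexes, as given above.

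**Figure D4:**
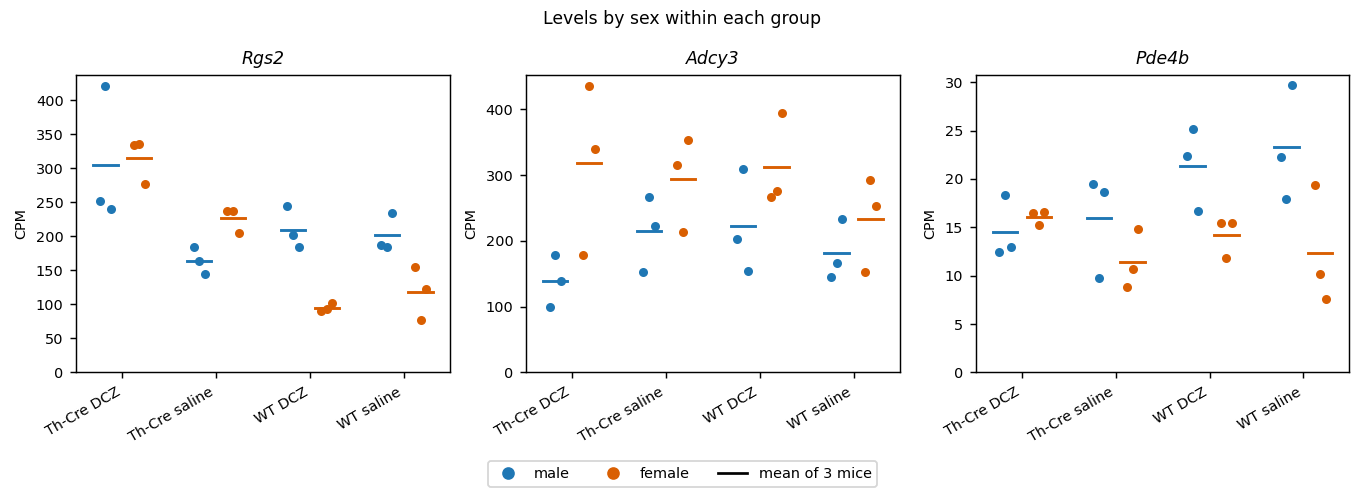
CPM of Rgs2, Adcy3 and Pde4b in each mouse (points), males and females side by side within each group, with the mean of 3 mice as a line. WT males (183.8 to 244.1 CPM) lie above WT females (77.13 to 155.4 CPM) for Rgs2 and the Th-Cre sexes overlap, while for Adcy3 the male mean is the lower one in each group.

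Members were also compared across animals after the group means and the sex difference had been taken out, on log2 CPM over 24 libraries that share tissue, preparation and scaling. The PKA genes and Pde3b varied together: Pearson's r was 0.762 between Prkar2b and Pde3b, 0.696 between Prkaca and Pde3b, 0.648 between Prkaca and Prkar2b, 0.645 between Prkar1a and Pde3b, 0.626 between Prkar1a and Prkar2b and 0.536 between Prkaca and Prkar1a. These are the members called between the genotypes under saline other than Adcy6, whose r with them was 0.261 to 0.373. Adcy3 went with Pde4d (0.628). Pde4d also went with Pde3b (0.583) and Prkar2b (0.531), and less with Prkaca (0.318) and Prkar1a (0.275). Pde4b ran against Prkaca (-0.441) and with Rgs2 (0.459), and Gnas was close to 0 with Pde3b (0.015). Without the muscle-bearing libraries the r of the 6 pairs among the PKA genes and Pde3b was 0.59 to 0.792. In the same libraries Adcy3 with Pde4d was 0.623, Pde4b was -0.355 with Prkaca and 0.6 with Rgs2, and Gnas with Pde3b was -0.201. Some other pairs moved more, such as Adcy3 with Rgs2, at 0.0857 over 24 libraries and 0.486 without the muscle-bearing ones.

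**Figure D5:**
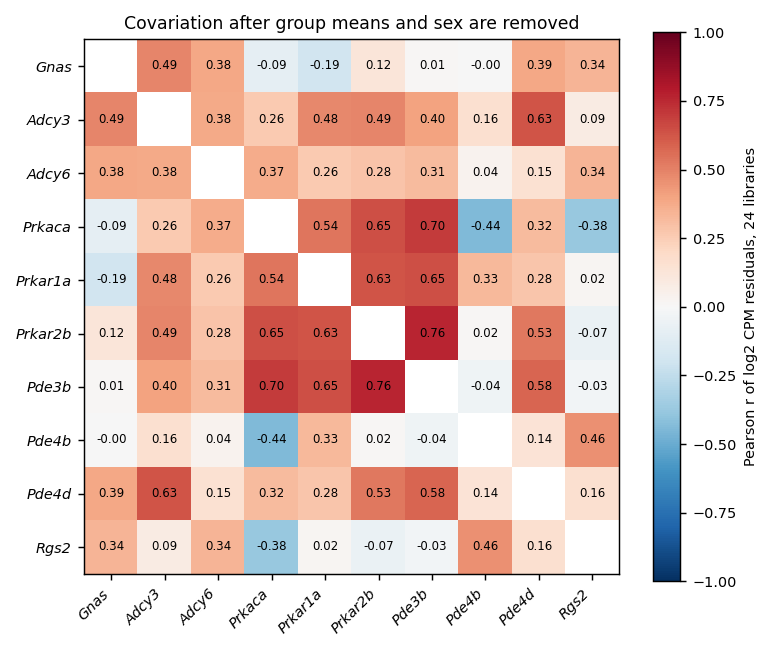
Pearson's r between each pair of the 10 members, from log2 CPM with group means and sex removed, over 24 libraries (colour and printed value). Prkaca, Prkar1a, Prkar2b and Pde3b have positive values from 0.54 to 0.76 with one another, and Rgs2 is near 0 with Prkar1a, Prkar2b and Pde3b. Pde4d is at 0.58 with Pde3b and 0.53 with Prkar2b.

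Among 10912 genes outside the lists with a mean log2 CPM of at least 1, the gene most like Rgs2 in this sense was Nr4a3 (r = 0.847), an orphan nuclear receptor gene of the immediate early class, followed by Irf2bp2 (0.808) and Cep85l (0.779). Prkaca was closest to Akt2 (0.902), a kinase of the insulin pathway, Lonp2 (0.882) and Taco1 (0.878). Pde3b was closest to Tmem106b (0.938), Pnpla8 (0.929) and Rab10 (0.927), Prkar2b to Slc25a16 (0.900), Abcd3 (0.893) and Ncoa4 (0.891), and Prkar1a to Pcdhgc3 (0.773), Extl3 (0.769) and Prkaa1 (0.767). Adcy3 was closest to Scarb2 (0.927), Chd3 (0.916) and Slc22a15 (0.886), and Gnas to Cib2 (0.896), Trim67 (0.868) and Pon1 (0.868). The likeness was weakest for Adcy6, whose nearest genes were Zcchc9 (0.677), Eef2 (0.676) and Fam234a (0.659). Pde4b was nearest to Polk (0.815), Pcf11 (0.791) and Thbs1 (0.787), and Pde4d to Specc1l (0.781), Rreb1 (0.777) and Impdh1 (0.742).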

How the data were processed

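The authors deposited estimated counts per gene symbol as whole numbers for 24 libraries, and a summary with the percent of reads pseudoaligned (84.2 to 88.7, as deposited). Per the submitters' processing notes, kallisto 0.44.0 and GRCm38.p6 were used. No source used here names the transcript set or says whether strand was used. Each library is a separate mouse by its label, and the labels pair no mice between groups.

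The estimated counts were fitted as deposited with the edgeR 4.0.16 quasi-likelihood test (R 4.3.3): filterByExpr by group (13129 of 36144 genes kept), TMM scaling, group means and a term for sex, 19 residual degrees of freedom, Benjamini-Hochberg adjustment over all genes kept. The common biological coefficient of variation was 15.6%. CPM is on TMM sizes, SE is the log2 fold change over the square root of F, and log2 CPM has a prior count of 2. RLE scaling, other filters, no sex term, fewer libraries, DESeq2 1.42.0 and leaving out each library were alternatives. The fits by sex, the 8-mean model and its alternatives were added after the values were seen. Other pathway genes were named if called (at most 4 per group and comparison, by adjusted p) or with an unadjusted p under 0.01 for DCZ. The members and lists were chosen with earlier results of these data known. The authors' normalized tables were not used. The test was tried on simulated counts first.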

Additional observations from a re-analysis of the deposited data

Results flagged for a closer look

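Within the groups of 6, 2 of the 40 sets of member values held a mouse far from the others, about the share that chance gives (1 in 20). Prkaca in WT DCZ mouse 1, a male, was at 280.8 CPM, while the other 5 mice of that group had 226.2 to 246.4 CPM. Pde3b in WT saline mouse 2, a female, was at 255.5 CPM, while the other 5 had 159.8 to 181.8 CPM. Without WT saline mouse 2 the Pde3b difference of Th-Cre saline over WT saline mice was 0.71 on the log2 scale (adjusted p = 6e-05, edgeR), against 0.59 with it.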

How the results depend on the processing

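No paired analysis was possible because the mouse numbers are unique to each animal. Each group value rests on 6 mice, and how far depth or the muscle-bearing libraries, which are unevenly spread over the groups, set its precision was not tested. The cause of each move below was not tested.

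The number of members called was 0 for DCZ in either genotype and for its interaction with genotype under every alternative. Between Th-Cre saline and WT saline mice it was 5, and 0 without the muscle-bearing libraries, 2 in males alone and 0 in females alone. Between Th-Cre DCZ and WT DCZ mice it was 4, and 1 under each of those 3 alternatives and 2 to 6 when single libraries were left out (2 without WT DCZ 5, 6 without WT DCZ 1). Between males and females it was 1, and 2 without a filter on low counts, 3 by DESeq2 and 1 to 2 with single libraries left out. For sex by genotype it was 0, and 1 (Rgs2) without a filter, without the muscle-bearing libraries or without WT saline 12 or Th-Cre DCZ DN2091 (range 0 to 1).

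Calls over all genes also moved. For DCZ in Th-Cre mice there were 3, and 20 without a filter, 13 with the compared libraries alone, 7 without the muscle-bearing libraries, 37 by DESeq2, 1 in males alone and 3 to 18 with single libraries left out. For DCZ in WT mice there was 1, and 2 by DESeq2, 0 without a filter, without the sex term, with the compared libraries alone, without the muscle-bearing libraries and in either sex alone, and 0 to 39 with single libraries left out (39 without WT saline 2). For the interaction there was 1, and 8 without a filter, 2 without the sex term, 4 without the muscle-bearing libraries, 16 by DESeq2, 0 in either sex alone and 1 to 7 with single libraries left out. Between Th-Cre saline and WT saline mice there were 3270, and 109 without the muscle-bearing libraries, 658 in males alone and 6 in females alone. Between Th-Cre DCZ and WT DCZ mice there were 1808, and 1081 with the compared libraries alone, 535 without the muscle-bearing libraries, 735 in males alone, 30 in females alone and 850 to 2443 with single libraries left out. For sex by genotype there were 0, and 6 without a filter, 3 without the muscle-bearing libraries and 0 to 2 with single libraries left out.

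Signs turned only for log2 fold changes that had not passed the test, most of them near 0. For DCZ in Th-Cre mice these were, in males alone, Prkaca (0.0099), Prkar1a (-0.038), Pde3b (0.071), Pde4b (-0.13) and Pde4d (-0.058), in females alone, Adcy3 (0.12) and Prkar2b (0.090), and without the muscle-bearing libraries Prkar1a (-0.024). With single libraries left out Prkaca ran from -0.036 to 0.010, Prkar1a from -0.026 to 0.042, Prkar2b from -0.059 to 0.0095 and Pde3b from -0.045 to 0.023. For DCZ in WT mice they were Pde4b without the sex term (-0.0038) and in males alone (-0.13), and Rgs2 in males alone (0.048). With single libraries left out Pde4b ran from -0.12 to 0.16, Pde4d from -0.17 to 0.049 and Rgs2 from -0.24 to 0.013. In the interaction Pde4b was -0.025 without the muscle-bearing libraries and -0.0037 in males alone. Between Th-Cre saline and WT saline mice Rgs2 was -0.30 in males alone. Between Th-Cre DCZ and WT DCZ mice Adcy3 was 0.023 and Pde4b 0.17 in females alone, and Adcy6 was -0.0011 with a mean of at least 1 CPM, -0.0026 without the muscle-bearing libraries, -0.059 in males alone and -0.032 to 0.045 with single libraries left out. Between males and females Prkar2b ran from -0.071 to 0.0092.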
